A study of Mus musculus with 2 samples.

Results

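The genes described here are 8 secreted or cell-surface matrix proteases and protease inhibitors, taken by symbol from the 31053 genes in the count files. They are the metalloproteinases Mmp2, Mmp3 and Mmp14, the tissue inhibitors Timp1, Timp2 and Timp3, and the serine proteases Htra1 and Htra3. They were measured by single-cell RNA sequencing in untreated dermis (UT) and after 7 days of imiquimod (IMQ), with 1 library each. Imiquimod is a Toll-like receptor agonist used to induce psoriasiform inflammation. All mice were C57BL/6, aged 8 weeks, with the genotype PdgfraDreER-tdTomato. In these mice tamoxifen turns on a red reporter in cells that express Pdgfra, a fibroblast marker, so both libraries hold labelled cells of that lineage and their progeny. Live dermal cells negative for CD45 and positive for tdTomato were sorted after enzymatic digestion and run on the Chromium 3′ kit, version 3. How many mice went into each library is not given in the sources used here. With 1 library per group no spread between mice can be estimated, so no test was run and no p-value is given. Every interval below is a 95% interval for counting error only.

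Matrix metalloproteinases are zinc enzymes that are made as inactive precursors and cut collagens, proteoglycans and other matrix proteins once activated. At the cell surface the membrane-bound MMP14 activates MMP2, with TIMP2 as the bridge that holds the MMP2 precursor, and an excess of TIMP2 stops the reaction. TIMPs bind active metalloproteinases and block them, while HTRA1 and HTRA3 are trypsin-like serine proteases outside this inhibitor system. In the dermis these genes are known mainly from fibroblasts.

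The promoters of Mmp3 and Mmp14 are shown because these genes lay furthest apart between the libraries among the members with at least 50 unique molecular identifiers (UMIs, 1 per captured transcript). Each run holds the 250 bases before the RefSeq start in GRCm38.p6, on the plus strand, with searched motifs in capitals. The Mmp3 window is chr9:7445572-7445821 and the Mmp14 window is chr14:54431348-54431597.
Mmp3: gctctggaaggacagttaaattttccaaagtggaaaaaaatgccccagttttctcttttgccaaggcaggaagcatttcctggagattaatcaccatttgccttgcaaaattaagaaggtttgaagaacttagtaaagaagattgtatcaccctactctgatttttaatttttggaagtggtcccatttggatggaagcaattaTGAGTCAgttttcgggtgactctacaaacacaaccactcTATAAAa
Mmp14: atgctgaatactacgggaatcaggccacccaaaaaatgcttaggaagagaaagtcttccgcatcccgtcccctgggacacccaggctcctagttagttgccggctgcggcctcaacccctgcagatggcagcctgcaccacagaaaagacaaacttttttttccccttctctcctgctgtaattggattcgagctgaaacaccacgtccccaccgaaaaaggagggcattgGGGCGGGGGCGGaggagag
The Mmp3 window held 1 AP-1 site, TGAGTCA, whose first base lay 46 bases before the start, and 1 TATAAA, whose first base lay 7 bases before it. The Mmp14 window held 2 adjoining copies of GGGCGG and neither of the other motifs. On either strand, an AP-1 site (TGAGTCA or TGACTCA) was in 4.46% of all 32851 RefSeq promoter windows of this length, TATAAA in 12.4% and GGGCGG in 32.7%. Of the 8 members, 7 had a promoter entry, and Mmp2 did not. Among those 7, Mmp3 was the only member with an AP-1 site or a TATAAA. The motifs do not overlap each other. A match is a description of letters and not a measured binding site.

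All 8 genes lie on the GRCm38 assembly as annotated by GENCODE M21. Mmp2 is at chr8:92827291-92853420, Mmp3 at chr9:7445822-7455975, Mmp14 at chr14:54431612-54445364 and Timp1 at chrX:20870166-20874735, all on the plus strand. Timp3 at chr10:86300372-86349506 and Htra1 at chr7:130936111-130985660 are also on the plus strand, and Timp2 at chr11:118301069-118355740 and Htra3 at chr5:35652023-35679782 are on the minus strand. Whether the counting used strand is not given in the sources used here. Genes overlap 4 members, namely Syn1 at Timp1, Cep295nl at Timp2, Syn3 at Timp3 and Fgfr2 at Htra1. Cep295nl lies on the same strand as Timp2, while Syn1, Syn3 and Fgfr2 lie on the strand opposite their member. These overlapping genes held few UMIs of their own, the most for Fgfr2 with 28 in UT and 5 in IMQ.

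Barcodes with 200 to 5000 detected genes and at most 5% mitochondrial UMIs were kept, which left 1045 of 1415 in UT and 571 of 5047 in IMQ. The study counts more IMQ cells after filtering than the deposited IMQ matrix has barcodes, so it may not be the matrix analysed there. A limit of 10% kept 1301 and 1043 barcodes. At the 5% limit the kept barcodes held 1104798 UMIs in UT and 460947 in IMQ, with medians of 741 and 659 UMIs per barcode. The libraries shared 1 barcode sequence as deposited and 0 among those kept. Fibroblast markers were at 81828 counts per 1e6 UMIs (CPM) in UT and 122602 in IMQ, and 990 and 565 of the kept barcodes held at least 3 such UMIs. Of the other cell types checked, keratinocyte markers were at 1524 CPM in UT and 15.2 in IMQ, and class II markers at 1456 and 117 CPM, from 4 and 8 UT barcodes and from 0 and 3 IMQ barcodes with at least 3 UMIs. Among fibroblast subsets, papillary markers were at 687 CPM in UT and 180.1 in IMQ, fascial markers at 2139 and 1289, and reticular markers at 721 and 883. A change in the mix of fibroblasts and a change within them cannot be told apart in library sums. The transcript Gm42418 took 1.38% of kept UMIs in UT and 14.6% in IMQ, and the median gene had a log2 ratio of IMQ over UT of -0.63 in CPM. Ratios are therefore also given relative to this median gene, which came from the 8129 genes that reached 10 UMIs in the libraries together.

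In the kept barcodes Mmp3 and Timp1 were higher in IMQ, Mmp14 was lower, and the other 5 genes lay within 2-fold of the median gene. All 8 passed the minimum of 10 UMIs. By this 2-fold limit 2 members were higher and 1 was lower, where 13.0% of all genes tested were higher and 17.5% were lower. Against the median gene the members had a median log2 ratio of 0.42, which is 0 for all genes by construction, and 6 of the 8 lay above 0. At the 10% limit the same counts were 2 and 1, beside 12.1% and 13.9% of all genes, and the median was 0.43. The shares for all genes are smaller where UMIs are many. Among genes with at least 50 UMIs, which leaves out Timp1, 8.64% were at least 2-fold higher and 9.92% lower, and at 200 UMIs these shares were 8.73% and 8.28%. In plain CPM, not centred on the median gene, 1 member (Timp1) was at least 2-fold higher and 1 (Mmp14) lower, beside 4.03% and 34.2% of all genes.

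**Figure D1:**
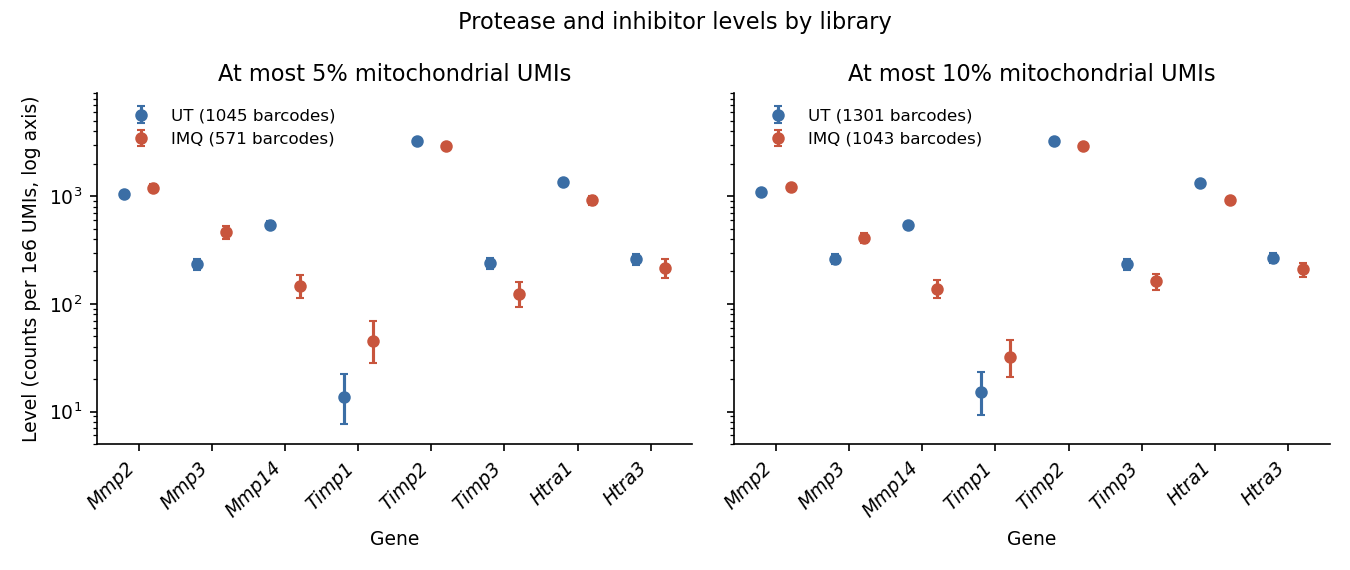
Level of each of the 8 genes in CPM on a log axis, in UT and IMQ, at the 5% (left) and 10% (right) mitochondrial limits. Points are sums over each library and bars are exact 95% Poisson intervals; the UT and IMQ intervals of Mmp3 and Mmp14 do not overlap at either limit.

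Mmp14, the membrane-bound collagenase that activates MMP2, had the CPM ratio furthest from 1 among the members with at least 50 UMIs. It had 603 UMIs in UT (546 CPM, 503 to 591) and 67 in IMQ (145 CPM, 113 to 185). The intervals were far apart, and the level was 3.76-fold lower in IMQ, a log2 ratio of -1.91 (-2.30 to -1.54). Relative to the median gene the log2 ratio was -1.28 (-1.66 to -0.91), with the median taken as fixed. At the 10% limit the levels were 540.0 and 138 CPM, and the relative ratio was again -1.28. No barcode carried the difference alone, since the log2 ratio without the barcode richest in Mmp14 in each library was -1.96.

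Mmp3, stromelysin 1, which cuts proteoglycans and activates other metalloproteinases, went the other way. It had 258 UMIs in UT (234 CPM, 206 to 264) and 214 in IMQ (464 CPM, 404 to 531). The intervals did not overlap, and the level was 1.99-fold higher in IMQ, a log2 ratio of 0.99 (0.72 to 1.26) and of 1.62 (1.36 to 1.89) relative to the median gene. At the 10% limit the levels were 263 and 413 CPM, and the relative ratio was 1.34 (1.12 to 1.56). The difference was thus smaller when barcodes between 5% and 10% were admitted, and the level within UT was higher in those barcodes, as described further on.

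Mmp2, gelatinase A, was the most abundant of the 3 Mmp members by UMIs, which are counted at the 3′ end and were not scaled by length. It stood at 1059.9 CPM in UT (1000.1 to 1122) and 1193 CPM in IMQ (1096 to 1297), from 1171 and 550 UMIs. These intervals overlapped, and the log2 ratio was 0.17 (0.02 to 0.32) in CPM and 0.80 relative to the median gene, under the 2-fold limit. Mmp2 was thus close to level in CPM while the median gene was lower.

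Of the inhibitors, Timp2, the partner of MMP14 in MMP2 activation, was the most abundant member in both libraries. It had 3590 UMIs in UT (3249 CPM, 3144 to 3358) and 1346 in IMQ (2920.1 CPM, 2766 to 3080.4), and it made up 46.7% and 48.5% of all member UMIs. Its log2 ratio was -0.15 (-0.25 to -0.06) in CPM and 0.48 relative to the median gene. In CPM the sign was therefore the opposite of that against the median gene.

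Timp3, which is bound to the matrix and also inhibits ADAM proteases, had 264 UMIs in UT (239 CPM, 211 to 269.6) and 57 in IMQ (124 CPM, 93.7 to 160.2). The intervals did not overlap, and the log2 ratio was -0.95 (-1.39 to -0.53) in CPM. Relative to the median gene it was -0.32 (-0.76 to 0.10) at the 5% limit and 0.16 (-0.14 to 0.45) at the 10% limit, so its position beside the median gene was not resolved. Within IMQ, Timp3 stood at 207 CPM in barcodes between 5% and 10% mitochondrial UMIs, a log2 ratio of 0.74 (0.24 to 1.26) over those under 5%. Of the 80 UMIs in that band 15 came from 1 barcode, without which the ratio was 0.50 (-0.03 to 1.04).

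Timp1, an inducible inhibitor that blocks most metalloproteinases but MMP14 only weakly, was the scarcest member. It had 15 UMIs in as many UT barcodes and 21 UMIs in 16 IMQ barcodes, 13.6 CPM (7.60 to 22.4) against 45.6 CPM (28.2 to 69.6). The log2 ratio was 1.75 (0.72 to 2.81), and 2.38 relative to the median gene. At the 10% limit, with 20 and 27 UMIs, the levels were 15.2 and 31.9 CPM and the log2 ratio was 1.07 (0.18 to 1.98). In IMQ, 3 of the 21 UMIs came from 1 barcode. Timp1 therefore rests on few transcripts in both libraries.

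Htra1 and Htra3, secreted proteases that cut proteoglycans and fibronectin and can dampen TGF-beta signalling, moved little against the median gene. Htra1 stood at 1359 CPM in UT (1291 to 1429) and 918 in IMQ (832 to 1009), with intervals that did not overlap. The log2 ratio was -0.57 in CPM and 0.07 (-0.09 to 0.22) relative to the median gene. Htra3 stood at 259.8 CPM in UT (231 to 292) and 215 in IMQ (175 to 261), with overlapping intervals and a relative ratio of 0.36 (0.01 to 0.69).

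**Figure D2:**
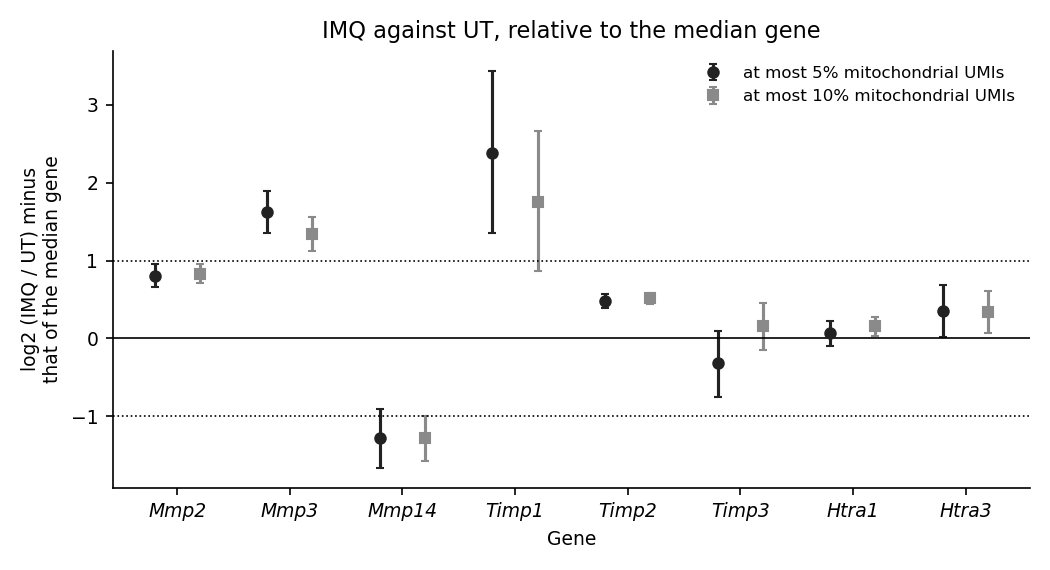
Log2 ratio of IMQ over UT minus that of the median gene for each gene, at the 5% limit (circles) and the 10% limit (squares), with exact conditional 95% intervals. Dotted lines mark the 2-fold limit; Mmp3 and Timp1 lie above it and Mmp14 below it at both limits, and Timp3 changes sign between them.

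Ratios between members within a library do not depend on how the libraries are scaled. The 3 inhibitors had 1.90 UMIs for each UMI of Mmp2, Mmp3 and Mmp14 in UT and 1.71 in IMQ. The ratio of these was 0.900 (0.813 to 0.997) at the 5% limit and 0.948 (0.875 to 1.03) at the 10% limit, where the interval reached 1. The sum thus changed little, while its parts shifted. For each Mmp14 UMI there were 1.94 Mmp2 UMIs in UT and 8.21 in IMQ, and the ratio of these was 4.23 (3.21 to 5.63). Timp2 over Mmp14 was 5.95 in UT and 20.1 in IMQ, and their ratio was 3.37 (2.60 to 4.44). Mmp3 over Mmp14 went from 0.428 to 3.19, a ratio of 7.45 (5.42 to 10.3), so Mmp14 exceeded Mmp3 in UT and Mmp3 exceeded Mmp14 in IMQ. Among the other pairs Timp2 over Mmp2 was 3.07 in UT and 2.45 in IMQ, and Htra1 over Htra3 was 5.23 and 4.27, with an interval for the ratio that included 1 (0.631 to 1.06).

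For Mmp3 and Mmp14 the share of barcodes with a UMI followed the levels. Mmp3 was seen in 14.0% of UT barcodes (11.9 to 16.2) and in 25.9% of IMQ barcodes (22.4 to 29.7). Mmp14 was seen in 31.5% (28.7 to 34.4) and 9.11% (6.88 to 11.8). Since the UT barcodes were deeper, each barcode was also thinned to 400 UMIs, which left 972 UT and 538 IMQ barcodes, with 73 and 33 shallower ones left out, and the share expected over all random thinnings was computed. Mmp3 was then in 8.29% of UT (6.67 to 10.3) and 16.3% of IMQ (13.3 to 19.8), and Mmp14 in 17.2% (15.0 to 19.8) and 5.36% (3.64 to 7.65). For both genes the intervals stayed apart after thinning.

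The wider spread of Mmp3 was in barcodes with 1 UMI. Barcodes expected to hold at least 2 Mmp3 UMIs after thinning were 2.10% in UT and 2.47% in IMQ, and the intervals overlapped (1.26 to 3.16 and 1.29 to 4.10). Unthinned, UT barcodes with Mmp3 held 1.77 UMIs of it on average and up to 10, and IMQ barcodes held 1.45 and up to 5. Free RNA can give 1 UMI to cells that do not express a gene. The background share could not be set, since only 8 UT and 3 IMQ barcodes held at least 3 class II UMIs, of which 0 of 8 and 1 of 3 had a Mmp3 UMI. In barcodes with under 200 genes, Mmp3 stood at 110.5 CPM in UT, from 3 UMIs (22.8 to 323), and at 287 CPM in IMQ (257 to 320.0). The part of free RNA in the shares was not tested.

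The other members differed less by share. After thinning, Mmp2 was in 31.2% of UT and 36.4% of IMQ barcodes, Timp2 in 66.5% and 65.7%, and Htra3 in 9.77% and 8.31%, all with overlapping intervals. Htra1 was in 37.4% (34.3 to 40.5) and 30.2% (26.4 to 34.4), and these intervals only just overlapped. Timp3 was in 8.44% (6.77 to 10.4) and 4.70% (3.03 to 6.78), which touched at their ends. Timp1 was in 0.599% and 1.52%.

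**Figure D3:**
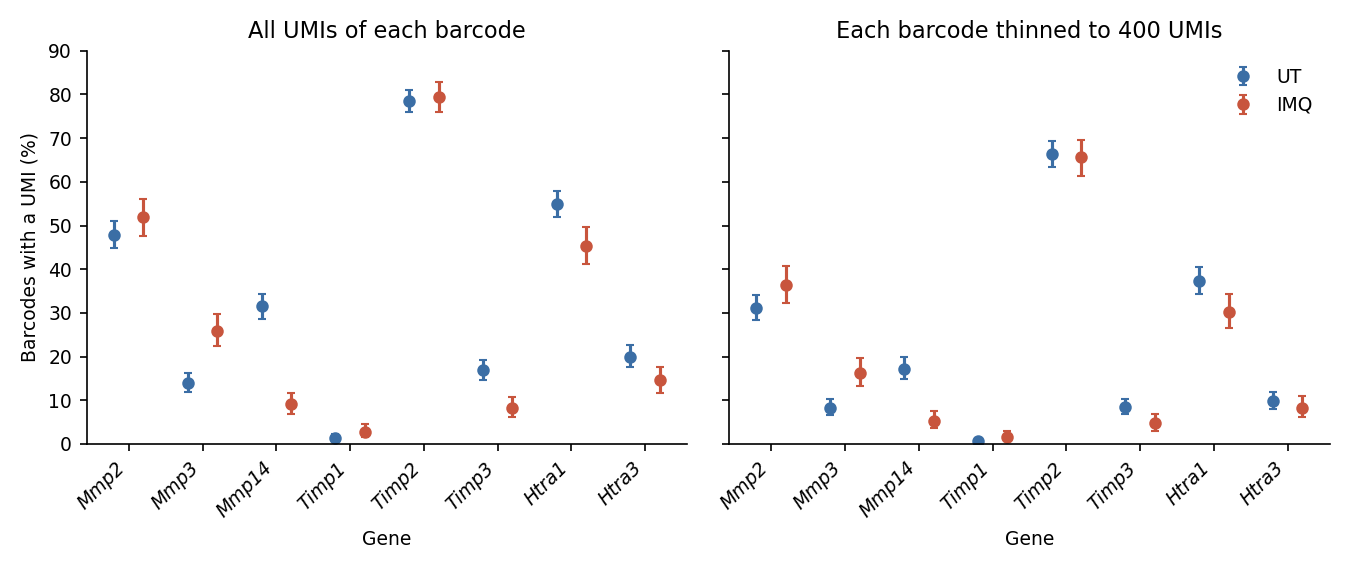
Percent of kept barcodes with at least 1 UMI of each gene, over all UMIs (left) and by the expectation after thinning each barcode to 400 UMIs (right), with exact 95% binomial intervals. Mmp3 is seen in more IMQ barcodes and Mmp14 in fewer in both panels, while Timp2 is level.

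The Mmp14 difference was present in each class of barcode examined, while that of Mmp3 was resolved in some. Mmp14 was lower in IMQ at a log2 ratio of -1.98 (-2.49 to -1.48) in barcodes between 5% and 10% mitochondrial UMIs, of -2.06 (-2.85 to -1.21) above 10%, and of -2.30 (-3.16 to -1.30) under 200 genes. Among kept barcodes cut by detected genes it ranged from -1.84 at 300 to under 400 genes to -1.61 at 600 genes or more, and the 4 intervals lay below 0. Relative to the median gene of each class, Mmp14 lay between -1.74 and -1.15 in the classes with at least 200 genes. Under 200 genes it was -3.22, but the median gene itself stood at 0.93 there. That class held 27157 UMIs in UT and 1155477 in IMQ, so its median gene is not comparable with the others.

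For Mmp3 the difference was not resolved above 5% mitochondrial UMIs. Between 5% and 10%, Mmp3 stood at 415 CPM in UT (333 to 512) and 352 in IMQ. The intervals overlapped, at a log2 ratio of -0.24 (-0.64 to 0.17). Above 10% it stood at 526 and 398 CPM, with a log2 ratio of -0.40 (-1.18 to 0.48). Relative to the median gene of each class these ratios were 0.36 (-0.03 to 0.77) and -0.08 (-0.86 to 0.80), beside 1.62 in the kept barcodes. Within UT, Mmp3 was higher in the barcodes between 5% and 10% than in those kept, by a log2 ratio of 0.83 (0.46 to 1.18), and within IMQ it was lower there, by -0.40 (-0.72 to -0.08). Among barcodes with at least 200 genes, the interval of Mmp3 thus lay above 0 at up to 5% mitochondrial UMIs and included 0 in both classes above. Timp1 had 5 UMIs in UT and 6 in IMQ between 5% and 10%, a log2 ratio of -0.60 (-2.58 to 1.45), and within IMQ its level there was lower than in the kept barcodes, by -1.55 (-3.15 to -0.20).

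Detected genes also separated the Mmp3 values. In kept barcodes the log2 ratio was 0.73 at 200 to under 300 genes, 0.65 at 300 to under 400 and 1.23 at 400 to under 600, with the 3 intervals above 0. At 600 genes or more Mmp3 stood at 167 CPM in UT and 91.2 in IMQ, from 82 and 5 UMIs, a log2 ratio of -0.88 (-2.54 to 0.40). In the same class Mmp2 was at -0.57 (-1.08 to -0.10), Timp2 at -1.17 (-1.54 to -0.83), Timp3 at -1.51 (-3.15 to -0.25), Htra1 at -1.83 (-2.55 to -1.19) and Htra3 at -1.88 (-3.78 to -0.49). Timp1 stood at 1.94 (-0.65 to 4.07) on 7 and 3 UMIs. Few IMQ barcodes reached this depth of detection, so these values describe a small part of that library.

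**Figure D4:**
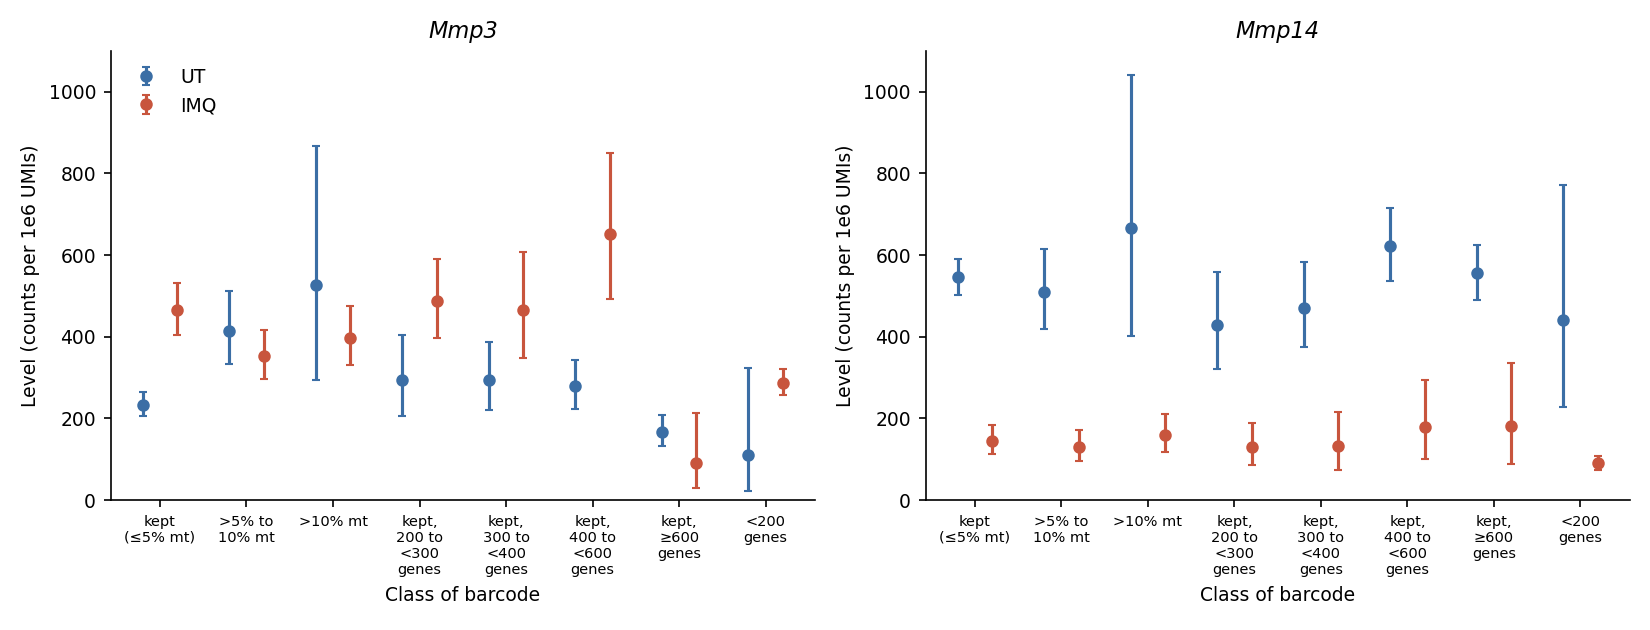
Level of Mmp3 (left) and Mmp14 (right) in CPM by class of barcode, in UT and IMQ, with exact 95% Poisson intervals; mt is the share of mitochondrial UMIs. Mmp14 is lower in IMQ in each class. The UT and IMQ level intervals of Mmp3 are apart over all kept barcodes and at 400 to under 600 genes, and overlap in the other classes shown.

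To see which cells carried Mmp3, barcodes with a Mmp3 UMI after thinning to 400 were set against the others within each library. The expected number of carriers was 80.5 in UT and 87.5 in IMQ. Carriers held fibroblast markers in both libraries, at levels slightly above those of the other barcodes, by a log2 ratio of 0.23 (0.18 to 0.29) in UT and 0.21 (0.17 to 0.26) in IMQ. In UT, the summed fascial list was lower in carriers (-0.55, -1.02 to -0.14), at an expected 48.5 UMIs against 789 in the others. Pi16, a marker of adventitial and fascial fibroblasts, made up 5.58 and 215 of these, at 174 CPM against 602 (-1.79, -3.15 to -0.54). The list without Pi16 was not examined, so its other genes are not shown to be lower. In IMQ the fascial list stood at -0.09 (-0.58 to 0.37). Whether the libraries differ in this was not tested. Reticular and papillary markers had intervals that included 0 in both libraries. In thinned barcodes with 2 or more fascial UMIs, the Mmp3 log2 ratio of IMQ over UT was 1.81 (0.70 to 2.93), on 15 and 16 UMIs. With no fascial UMI it was 0.42 (-0.09 to 0.94). By reticular UMIs it was -0.68 (-2.61 to 1.05) at 2 or more, on 9 and 5 UMIs, and 0.98 (0.50 to 1.47) with none. With no papillary UMI it was 1.04 (0.62 to 1.46), and 2 or more left 5 and 0 UMIs. The Mmp3 difference was thus resolved in some of these classes only.

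Immediate early and heat shock genes, the list that marks dissociation stress, had lower summed levels in Mmp3 carriers of both libraries. Their log2 ratio was -1.55 (-2.55 to -0.67) in UT and -1.06 (-2.05 to -0.20) in IMQ. Carriers held an expected 10.8 and 12.0 of these UMIs. The intervals take each UMI as independent, while 57 UT and 26 IMQ kept barcodes held at least 3 such UMIs before thinning. They may therefore be too narrow. Over all kept barcodes, in sums that were not thinned as the carrier ratios were, the same list stood at 2871 CPM in UT and 1866 in IMQ. It was thus lower in the library where Mmp3 was higher, and its part in the Mmp3 difference between libraries was not tested. Class II markers had an expected 0.664 UMIs in UT carriers, a log2 ratio of -4.43 (-9.15 to -1.34), and 0.568 in IMQ carriers, where the interval included 0 (-6.64 to 1.54). These intervals treat UMIs as independent, while only 5 UT barcodes and 1 IMQ barcode of those thinned held at least 3 class II UMIs. They therefore cannot show whether Mmp3 carriers hold fewer class II UMIs. Unthinned, barcodes with Mmp3 had a median of 915 UMIs against 759 in UT and 746 against 664 in IMQ.

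Of the other members, Mmp2 was higher in UT carriers of Mmp3, at 1504 CPM against 1026 (0.55, 0.08 to 0.98), and stood at 0.16 (-0.32 to 0.62) in IMQ. Mmp14 was level in UT carriers (0.06, -0.66 to 0.78) and was higher in IMQ carriers (1.25, 0.05 to 2.45) on an expected 9.89 UMIs. Timp2, Htra1 and Htra3 had intervals that included 0. The 10 genes most like Mmp3, by the lower of their ratios in the 2 libraries among 596 genes with at least 30 expected UMIs in each, were Ace, Fbln1, Scpep1, Lamb2, Psmd8, Sdf4, Ift20, Prelp, Cpxm1 and Slc38a10. Ace led with log2 ratios of 1.00 in UT and 0.69 in IMQ. The interval of each of the 10 included 0 in both libraries, so none was resolved from the rest. Across single barcodes in 1 thinning, Pearson's r between pairs of members reached at most 0.123 in UT (972 barcodes) and 0.129 in IMQ (538 barcodes), values too weak at this depth to be read.

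**Figure D5:**
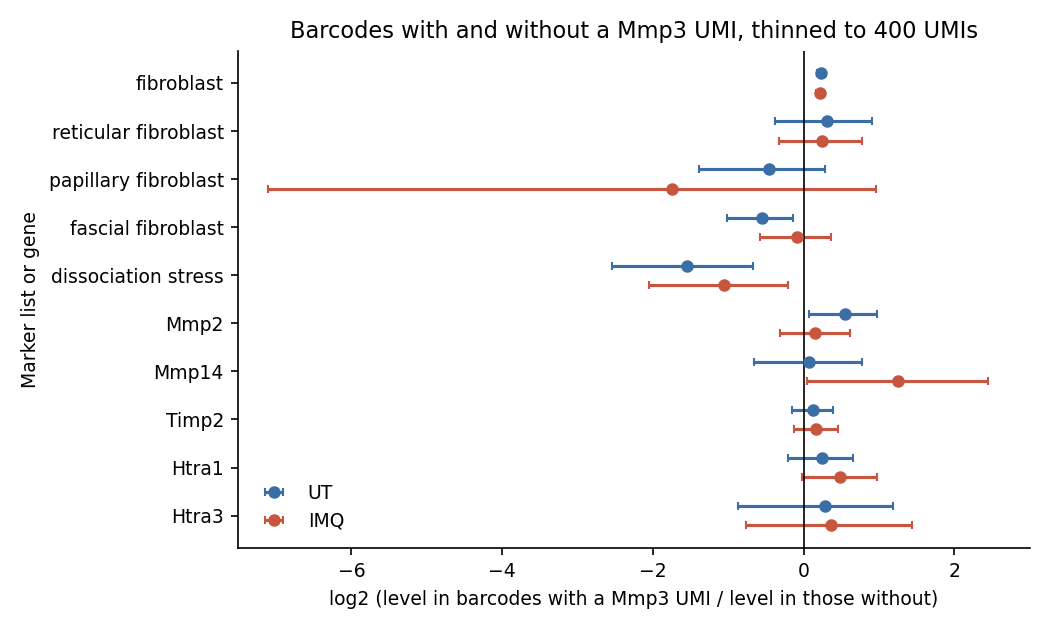
Log2 ratio of the level in barcodes with a Mmp3 UMI over that in barcodes without one, for marker lists and members, in UT and IMQ, by the expectation after thinning to 400 UMIs, with exact conditional 95% intervals. Fibroblast markers lie slightly above 0 and dissociation stress genes below 0 in both libraries, while the fascial list lies below 0 in UT.

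Beyond the 8 members, 70 further protease and inhibitor genes were listed, of which 69 were in the files and 39 had at least 10 UMIs. Of these 39, 7 were at least 2-fold higher in IMQ relative to the median gene, 5 were at least 2-fold lower and 27 were neither, beside 13.0% of all genes higher and 17.5% lower. Their median was 0.31, beside 0.42 for the members. Interstitial collagenase Mmp13, gelatinase Mmp9 and stromelysin Mmp10 had 0 UMIs in both libraries. With 3 UMIs taken as the limit for a count of 0, these levels could not be told from absence at this depth.

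Of the other metalloproteinases, 4 passed the minimum and none crossed 2-fold. Mmp23 stood at 233 CPM in UT and 232 in IMQ, and Mmp27 at 213 and 158, while Mmp11 and Mmp19 had under 30 UMIs in all. Reck, a membrane-anchored inhibitor of MMP14 and MMP2, stood at 60.6 and 71.6 CPM, a relative log2 ratio of 0.87. Furin, which activates MMP14 by cutting off its propeptide, was counted 36 times in UT against 6 in IMQ, and its relative ratio of -0.69 was under the 2-fold limit. Pcsk6, a related convertase, stood at 107.7 and 21.7 CPM, 119 and 10 UMIs, and was lower at -1.68.

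Among the adamalysins, which are shedding and matrix-cutting metalloproteinases, 6 of 14 were higher and 2 lower, beside the same 13.0% and 17.5% of all genes. Among the 6, Adamts4 had 10 UMIs in IMQ, of which 9 came from 1 barcode. The higher ones with at least 20 UMIs were Adam9 (19 and 25 UMIs, 2.29), Adamts10 (15 and 9 UMIs, 1.16, with an interval from -0.22 to 2.44) and Adamtsl1 (16 and 15 UMIs, 1.80), all on few UMIs. Adamts1 was lower at -1.15, with 66 and 8 UMIs. Adamts2, the procollagen N-proteinase, was the most abundant of them at 1369 CPM in UT and 948 in IMQ, a relative ratio of 0.10, while Adam10, Adam15, Adam17, Adamts5 and Adamtsl5 were within 2-fold.

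Of the astacins and serine proteases, 1 of 9 was higher and 1 lower, again beside 13.0% and 17.5% of all genes. The higher one was Prss23, a secreted serine protease, at 74.2 CPM in UT and 145 in IMQ (1.60), and the lower one was Pcsk6. Bmp1, the procollagen C-proteinase, stood at 147.5 and 124 CPM, a relative ratio of 0.38, and its enhancers Pcolce and Pcolce2 were at 0.80 and 0.65. Htra2, Plat, Dpp4 and Pcsk5 were within 2-fold.

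Of the inhibitors and cofactors, 0 of 12 were higher and 2 were lower, beside the same shares of all genes, both on few UMIs, Plaur (19 and 2 UMIs, -1.35) and Tfpi (45 and 6 UMIs, -1.01). Serpinf1, Serping1 and Serpinh1 exceeded 1000 CPM in both libraries and lay between 0.17 and 0.51. Bsg, a surface protein known to induce metalloproteinases in fibroblasts, stood at 787 and 367 CPM, a relative ratio of -0.47, and Serpine2 and Spock2 were within 2-fold.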

How the data were processed

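Deposited were UMI counts per gene and barcode, which the authors made with Cell Ranger and did not normalise. Per the file headers the version was 3.0.0 for UT and 3.1.0 for IMQ, and the submitters' processing notes name mm10. Of 31053 gene identifiers, 31011 were found in GENCODE M21. The members and gene lists were chosen with earlier results of these data known.

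UMIs were summed per library and scaled to CPM, with no pseudocount. Levels have exact Poisson intervals, shares Clopper-Pearson intervals and ratios exact conditional binomial intervals (scipy 1.17.1), at 95% and for counting error only. Expected shares and sums after thinning to 400 UMIs, the 10th percentile of the shallower library rounded down to 100, came from the hypergeometric distribution, with intervals from the rounded expected number, and were tested against drawn thinnings. Genes named are the 8 members, listed protease and inhibitor genes with at least 20 UMIs, and the 10 genes most like Mmp3. Mmp9, Mmp10 and Mmp13 were named after their counts of 0 were seen, and Adamts4 after its UMIs per barcode were. No doublets were removed after the sort. Alternatives were a 10% or no mitochondrial limit, at least 500 genes, Scrublet (scanpy 1.11.5) removal at 0.8% per 1000 barcodes, barcodes of other cell types left out, other scalings (TMM from edgeR 4.0.16), other UMI minimums, a 1.5-fold limit, the richest barcodes left out, other members in the inhibitor ratio and other detection limits.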

Additional observations from a re-analysis of the deposited data

How the results depend on the processing

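Mmp14 was at least 2-fold lower in IMQ in 13 of 13 alternatives, at -1.54 to -1.14 in the 9 taken relative to the median gene and -1.91 to -1.31 in the 4 scalings not centred on it. Mmp3 was at least 2-fold higher in 11 of 13 (0.93 to 1.73 and 0.99 to 1.59) and Timp1 in 12 of 12 (1.56 to 2.49 and 1.75 to 2.34), though at 500 genes Timp1 rests on 7 and 3 UMIs (-0.61 to 4.11). Fewer members were higher, 1 in place of 2, with at least 500 genes, in plain CPM and with at least 50 UMIs, which Timp1 did not reach. With at least 500 genes (303 UT and 37 IMQ barcodes) 2 members were lower, Mmp14 and Timp3, and Mmp2, Mmp3, Timp2, Timp3, Htra1 and Htra3 had their lowest values. The cause was not tested. Timp2, Timp3, Htra1 and Htra3 took either sign over the alternatives. The median gene stood at -0.63 in CPM, -0.37 once ribosomal protein, mitochondrial, AY036118 and Gm42418 UMIs were left out, and -0.04 under TMM and under median-of-ratios scaling. In plain CPM 4.03% of all genes were at least 2-fold higher and 34.2% at least 2-fold lower. The inhibitor to protease ratio of IMQ over UT was 1.04 (0.952 to 1.13) with Htra1 and Htra3 added to the proteases. That is the other side of 1, with an interval that included 1. The interval also included 1 at the 10% limit, with no mitochondrial limit and with at least 500 genes. The same held with Timp3 or barcodes of other cell types left out. It ended just below 1 after Scrublet removal and with barcodes of at least 10 Malat1 UMIs left out. Without thinning, the Mmp3 share was 14.0% in UT and 25.9% in IMQ, and after thinning the share with at least 2 UMIs was 2.10% and 2.47%. Leaving out barcodes with at least 10 Malat1 UMIs, 33 in UT and 6 in IMQ, and leaving out the IMQ barcode richest in Timp3 were chosen after seeing the data, and the former left Mmp3 at 1.48. No paired analysis was possible because the groups hold 1 library each and share fewer than 2 replicate numbers, and for the same reason no library could be left out. Timp1 has 36 UMIs in all, which limits its values.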
